A study of Sus scrofa with 24 samples.

Results

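A circular RNA (circRNA) forms when the splicing machinery joins the 3′ end of an exon, the splice donor, backwards to the 5′ start of the same exon or of one further upstream, the splice acceptor. The joined RNA has no free ends, resists exonucleases, and is read in sequencing only through the back-splice junction that no linear transcript holds. One acceptor can be joined to several donors, or one donor to several acceptors, and the circles then share one end and differ in how many exons they enclose. Such a choice is called alternative back-splicing. The data described here are the 1357 of 3000 circRNAs in the table (45.2%) that share their exact start or their exact end with at least 1 other circRNA on the same chromosome and strand, and the question is whether the partner of a shared end switched as the spleen matured.

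The material was whole spleen of Meishan pigs, a Chinese breed, in 8 age groups of 3 pigs each, weekly from 7 to 35 days (7d, 14d, 21d, 28d and 35d), with newborn pigs of 1 day (1d) before and pigs of 120 and 180 days (120d and 180d) after. The breed, the tissue and the library protocol were common to all groups, no treatment was given, and the sex and litter of the pigs are not given in the sources used here. The labels number the pigs within an age without saying more about them, so p-values measure the spread between these 24 libraries. In whole spleen, fewer cells of a type and less of an RNA per cell cannot be told apart. The table holds no linear mRNA, and 13 of the 139 genes in the cell type lists (T and NK, B and plasma, erythroid, myeloid, stromal) are hosts of a circRNA in it, so the tissue label could not be checked against its defining markers.

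The values are back-splice junction read counts. The members held 53.8% of all reads in the table, and between 53.0% and 55.2% in each library. The 1d libraries had total counts of 16273 to 23752 and the 7d libraries 19174 to 25283. From 14d to 35d the totals were 29718 to 56086. The 120d libraries reached 71092 to 87867 and the 180d libraries 37023 to 57890, so that the oldest groups were measured more precisely than the youngest. A count of 1 occurs nowhere in the table, and a value of 0 can therefore stand for 1 read. Whether a 0 can hide more reads is not known. circRNA_17604 of SLC38A9 was listed at 0 of 104 reads of its end in the 180d pig 2, against 39 of 94 and 52 of 123 in the other 180d pigs. The share of valid bases after read cleaning was under 0.96 in 7 of the 24 libraries, 1 at 21d and 2 in each of the 35d, 120d and 180d groups, and so moved with age.

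All 3000 junctions lie between an AG and a GT in the Sscrofa11.1 genome. The study's search for circRNAs used these signals, so this checks the positions and is no finding about the junctions. The 1357 members made up 700 shared ends, of which 400 were acceptors and 300 were donors. The table is a part of the circRNAs of the study, chosen in a way not given in the sources used here, so a circle counted as sharing no end may share one with a circle not analysed here, and the counts of partners are minimums. 726 members shared only their acceptor, 434 only their donor and 197 both. Acceptors had more partners than donors: 84 of the 400 acceptors (21.0%) but 30 of the 300 donors (10%) had 3 or more, and the most was 8 for an acceptor and 4 for a donor. The RefSeq exons matched both ends of 1293 members, in 467 host genes, another 56 lay inside a gene without such a match, and 8 lay outside genes. The acceptor lay in coding sequence for 959 of the members and in the 5′ UTR for 237. It belonged to exon 2 of the transcript for 404 of 1293 members (31.2%), against 399 of 1554 circRNAs (25.7%) that shared no end. Members had a median exonic length of 495.5 nt over 4 exons and the other circRNAs 392 nt over 3 exons, and the median intron before the acceptor was 9004 bases against 6940.5. These are descriptions of the table. The host transcripts had a median of 18 exons for members and 17 for the others.

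Shared ends of 4 genes are shown at their junctions, because the results on switching turn on them. Each line runs 5′ to 3′ across a junction, with 15 bases of the donor exon followed by 15 bases of the acceptor exon. Capitals mark the side that the circles share, and lower case the side that was chosen. At exon 2 of TLK1 (chromosome 15, minus strand, coding sequence), 7 donors were joined to the acceptor at position 77283482. TLK1 is a nuclear kinase that acts on histone chaperones. The sequences were read from the RefSeq Sscrofa11.1 genome.
TLK1 circRNA_16051, chr15:77251049-77283482, exons 2 to 3: gacaaagaatcagagGTGCAATGGATGAAC
TLK1 circRNA_16050, chr15:77249916-77283482, donor in no annotated exon end: gtaggttcccttgagGTGCAATGGATGAAC
TLK1 circRNA_16048, chr15:77234646-77283482, exons 2 to 4: atgaaagtagtcaggGTGCAATGGATGAAC
TLK1 circRNA_16047, chr15:77234457-77283482, donor in no annotated exon end: atctttataccacagGTGCAATGGATGAAC
TLK1 circRNA_16041, chr15:77226317-77283482, exons 2 to 8: gatgacttgctcaggGTGCAATGGATGAAC
TLK1 circRNA_16035, chr15:77219097-77283482, exons 2 to 11: aaatttaccacaattGTGCAATGGATGAAC
TLK1 circRNA_16029, chr15:77203628-77283482, exons 2 to 12: ggacatctcaaaaagGTGCAATGGATGAAC

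The next end is the donor of exon 4 of LOC110255584, a noncoding gene on the plus strand of chromosome 10, which was joined to 3 acceptors.
LOC110255584 circRNA_05259, chr10:42063616-42079536, acceptor at no annotated exon start: CCTTGTTCTCTAAAGaggaagaccagatcg
LOC110255584 circRNA_05253, chr10:42063516-42079536, exons 3 to 4: CCTTGTTCTCTAAAGtttcagtttaaattc
LOC110255584 circRNA_05246, chr10:42061873-42079536, exons 2 to 4: CCTTGTTCTCTAAAGattgaggacatgaat

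The donor of exon 15 of KRIT1, on the minus strand of chromosome 9, was joined to an acceptor in coding sequence or to one in the 5′ UTR. KRIT1 is a scaffold protein of endothelial junctions.
KRIT1 circRNA_37556, chr9:72153385-72160471, exons 13 to 15: CTTCATGAATACAAGgccttcagctcaagc
KRIT1 circRNA_37561, chr9:72153385-72179828, exons 3 to 15: CTTCATGAATACAAGccatgggaaatccgg

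The acceptor of exon 2 of EZH2, in the 5′ UTR on the plus strand of chromosome 9, was joined to 3 donors. EZH2 is the catalytic subunit of Polycomb repressive complex 2 and methylates histone H3.
EZH2 circRNA_38086, chr9:109411982-109412809, exons 2 to 3: cgcgggaccagggagAATAATCATGGGCCA
EZH2 circRNA_38087, chr9:109411982-109425231, exons 2 to 5: cagcagaatttcatgAATAATCATGGGCCA
EZH2 circRNA_38090, chr9:109411982-109431724, exons 2 to 9: actgcttcctacatcAATAATCATGGGCCA

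At the other extreme were acceptors 3 bases apart. In 5 genes a donor was joined to both AGs of a tandem acceptor, written NAGNAG with N for any base, and the circles differed by 3 bases in length. Windows of 27 bases on Sscrofa11.1 show the tandem in capitals between the end of the intron and the exon.
ELF2, chr8:87799371-87799397, plus strand: tccccccacTAGTAGttccagagaact
PCTP, chr12:32060076-32060102, plus strand: ctgtttttaCAGCAGactgggctttat
FKBP8, chr2:59261718-59261744, plus strand: ctcctccccCAGCAGgagcccatacat
TRAPPC8, chr6:115760537-115760563, minus strand: tctctttttCAGTAGatggcttaccaa
GSPT1, chr3:31250796-31250822, plus strand: gtcttatttCAGTAGaaaatggggaga

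The first AG took most reads in 4 of these 5 genes. It held 2675 reads against 342 in ELF2 (88.7%), which encodes an ETS transcription factor, and led in 24 of 24 libraries. The first AG also led in PCTP, a phosphatidylcholine transfer protein, with 1194 reads against 214 (84.8%), in FKBP8, an immunophilin of the outer mitochondrial membrane, with 514 against 169 (75.3%), and in GSPT1, a translation termination factor, with 321 against 99 (76.4%). TRAPPC8, a subunit of a vesicle tethering complex, went the other way, with 118 reads at the first AG and 386 at the second (23.4% at the first), and the first AG led in 0 of 24 libraries. The NAGNAG letters stand at the acceptor of 158 of the 3000 circRNAs (5.27%), searched on the strand of the circle. TRAPPC8 and GSPT1 were named after their values were seen. None of ELF2, PCTP and FKBP8 passed the test for a switch over the stages (adjusted p = 0.994).

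Most partners lay further apart. Of the 973 pairs of partners with both chosen ends at an annotated exon, 406 (41.7%) differed by 1 exon, 226 (23.2%) by 2 and 130 (13.4%) by 3. The distance between the chosen ends had a median of 8908.5 bases over all 1072 pairs. The 1357 members fell into 521 groups linked by shared ends, 346 of which were plain pairs and 28 of which held 5 or more circles. The largest joined 11 circles of PICALM, a clathrin assembly protein, through 2 acceptors and 4 donors, followed by 10 circles of PRPSAP2, a partner of phosphoribosyl pyrophosphate synthetase.

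In 18 genes, 2 acceptors and 2 donors were joined in all 4 combinations, so that it can be asked whether the choice at one end went with the choice at the other. The odds ratio of the pooled reads, above 1 where the downstream donor went more with the downstream than with the upstream acceptor, ran from 0.238 in LOC102162486 to 7.30 in ELF2. In ELF2 the acceptor at 87787563 gave 129 reads with the near donor and 283 with the far one, whereas the acceptor at 87799383 gave 167 and 2675. In PSPC1 the ratio was 0.539. The ratios come from reads pooled over all libraries and carry no test.

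Most ends with many reads kept one leading partner. On acceptors with 2 partners the leading circle took a median of 65.6% of the reads of the end, and on donors 68.1%. The leader was the shorter circle on 179 of 316 such acceptors (56.6%) and 145 of 270 such donors (53.7%). The leader was then taken in the pooled reads of each of the 8 stages, and stages with a tie for the lead were left out. Of the 246 ends with a mean of at least 30 reads per library, 203 (82.5%) had the same leader in all remaining stages. Of the 45 ends with at least 100 reads, 39 (86.7%) did. Over all 700 ends, shallow ones included, the figure was 391 (55.9%). On ends of at least 30 reads the share of a partner varied between pigs of one age with a median SD of 8.17 percentage points, and the highest and lowest stage means were a median of 15.1 points apart. In 30 of these 246 ends that gap was over 3 times the SD within stages. The highest and lowest of 8 stage means lie apart through the spread between pigs alone, so these gaps are descriptions and carry no test.

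Some of the deep ends were among the stable ones. On the SLTM donor at position 113102025 of chromosome 1, one acceptor took 98.6% ± 1.23 (SD, n = 3) of the reads at 1d and 99.4% ± 0.616 at 180d. On the PHF21A donor, in a gene for a histone-binding subunit of a demethylase complex, the leader took 98.1% ± 1.68 and 98.6% ± 0.690. The circles themselves could change in abundance without a change in share. The SLTM leader was higher at 180d than at 1d by 1.04 ± 0.18 (log2 fold change ± SE, adjusted p = 2.66e-05).

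Leaders and other partners were also compared at their splice sites and introns. The longer intron lay beside the leading donor on 175 of 294 acceptors (59.5%) and beside the leading acceptor on 126 of 249 donors (50.6%). The donor letters GTAAGT or GTGAGT, searched on the strand of the circle, stood at 31.3% of leading donors and 29.4% of the others, against 33.0% of all 3000 donors.

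A switch was tested as a change in the log2 ratio of a partner's reads to those of all other partners of its end. The library total cancels in this ratio. Lone reads are missing from the table (above), however, so the listed ratio can still depend on depth where a partner has few reads. Ends with a mean of at least 10 reads per library entered: 636 of the 700 ends, with 1258 of the 1357 members. They gave 904 partners to test, since an end with 2 partners counts once, by its shorter circle. Between partners of an end, shorter and longer refer to the genomic span of the circle. The edgeR quasi-likelihood test called a partner at a Benjamini-Hochberg adjusted p under 0.05 over all 904. A difference anywhere among the 8 stages was called for 4 partners (0.442%) on 3 ends, and 58 partners had an unadjusted p under 0.05.

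At exon 2 of TLK1, the widest circle lost share with age. circRNA_16029, exons 2 to 12, held 5 of 115, 4 of 125 and 7 of 148 reads of the end at 1d. It held 16 of 191, 10 of 172 and 12 of 188 at 7d. By 180d it was down to 4 of 447, 5 of 791 and 7 of 665. The share was thus highest at 7d, at 6.86% ± 1.35 (SD, n = 3), and lowest at 180d, at 0.860% ± 0.212, and the 3 pigs at 180d lay below all 6 pigs at 1d and 7d (adjusted p over the stages 0.000506). The leading circle of the same acceptor, circRNA_16048 with exons 2 to 4, held 55.4% ± 3.31 at 1d and 54.7% ± 1.12 at 180d, and its share did not pass the test. In libraries scaled by the TMM method, circRNA_16048 was itself higher at 180d, from 121 ± 8.91 to 281 ± 21.0 normalised reads (log2 fold change 1.21 ± 0.21, adjusted p = 3.38e-05), while circRNA_16029 went from 9.03 ± 2.14 to 4.37 ± 0.833 (-1.03 ± 0.61, adjusted p = 0.313).

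On the donor of LOC110255584 the 2-exon circle gained on the 3-exon circle. circRNA_05253, exons 3 to 4, held 103 of 139, 148 of 203 and 194 of 238 reads at 1d. It held 180 of 202, 404 of 467 and 313 of 375 at 180d. The share was 76.2% ± 4.66 in newborn pigs, 71.8% ± 1.54 at 7d and 86.4% ± 2.82 at 180d, with no overlap between the pigs at 1d and at 180d (adjusted p = 0.00132). circRNA_05246, which adds exon 2, fell from 20.8% ± 4.91 to 11.4% ± 2.84 (adjusted p = 0.000754). Its own normalised level fell from 66.2 ± 13.4 to 31.1 ± 8.63 reads (log2 fold change -1.07 ± 0.27, adjusted p = 0.00587), and that of circRNA_05253 was 247 ± 43.7 and 239 ± 49.3. The third circle, circRNA_05259, had stage means between 1.57% and 3.06%.

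On the KRIT1 donor the gap between stages was wider and the reads fewer. The short circle circRNA_37556 held 6 of 8, 6 of 8 and 30 of 34 reads at 1d. At 7d it held 18 of 25, 6 of 12 and 17 of 27 reads. At 180d it held 47 of 49, 150 of 156 and 66 of 70. The stage means ran from 61.7% ± 11 at 7d to 95.5% ± 1.02 at 180d, 33.8 points apart (adjusted p = 0.0345). The value at 1d rests on 8 reads in each of 2 pigs, and 12 of 31 other settings ended this call, against 1 of 31 for each of the other 3 partners.

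**Figure D1:**
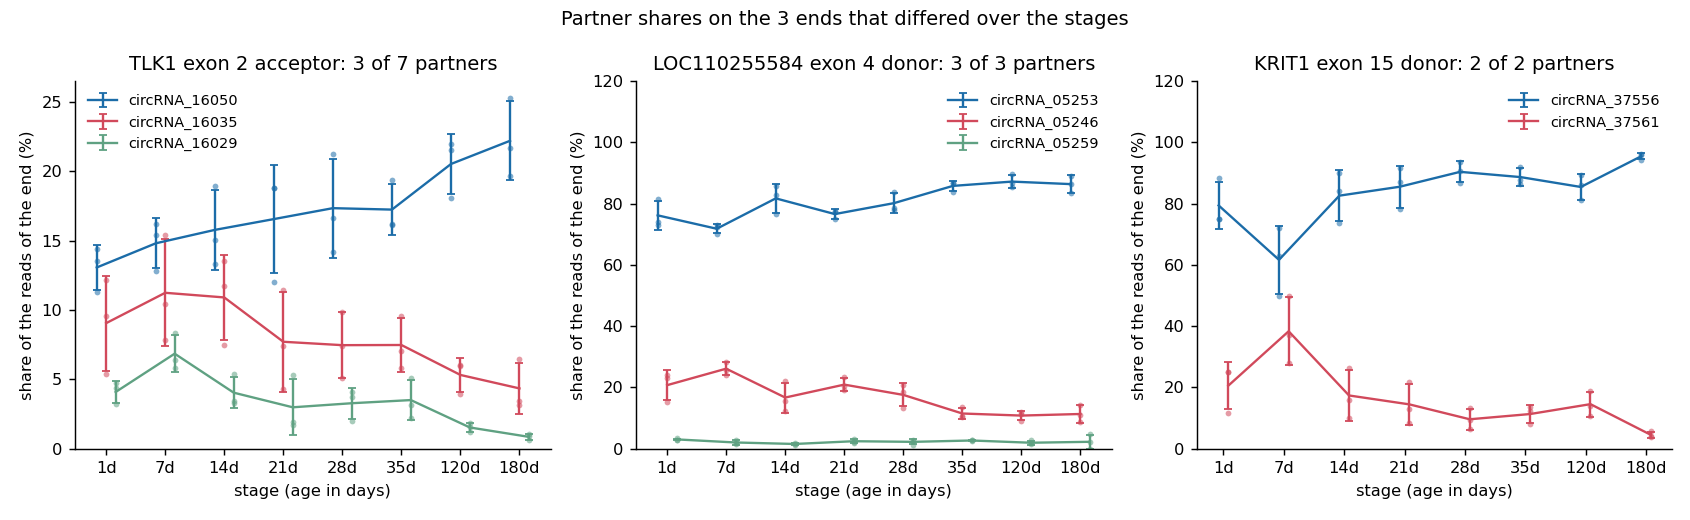
Share of the reads of the end (y axis, percent) against stage (x axis, age in days) for partners of TLK1, LOC110255584 and KRIT1; points are single pigs and lines join the means of 3 pigs with SD bars. The TLK1 circle circRNA_16029 runs from 4.09% at 1d to 0.860% at 180d, and circRNA_37556 of KRIT1 from 61.7% at 7d to 95.5% at 180d.

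A change in one direction with age was tested as a slope, the change in the log2 ratio for each 2-fold increase in age. It was called for 27 of 904 partners (2.99%) on 19 ends, 15 with a rise and 12 with a fall, and 137 partners had an unadjusted p under 0.05. Of the 27, 22 were partners of an acceptor and 5 of a donor, and 24 sat on ends with 3 or more partners, which supplied 382 of the partners tested. The shares on one end sum to 100%, so partners of one end are linked. The count fell to between 3 and 17 without the 1d pig 3 (13 calls), the 7d pig 1 (17), the 120d pig 3 (13), the 180d pig 1 (15), pig 2 (3) or pig 3 (13). It was 3 when all libraries were thinned to the lowest total, and 0 without the 7 libraries of low valid-base share, which leaves 1 pig at 180d. Of the 10 partners named for their slope, circRNA_16029 of TLK1 and circRNA_05246 of LOC110255584 kept the call both after thinning and by diffSpliceDGE, and circRNA_05253 kept it after thinning. The other 7 lost it in both. The diffSpliceDGE slopes of circRNA_05253, CHD2 circRNA_33937, EPB41 circRNA_30907, ULK2 circRNA_08807 and EZH2 circRNA_38086 were 0.03, 0.06, 0.13, 0.15 and 0.19. That of EZH2 circRNA_38090 was -0.14. They are smaller in size than the edgeR slopes, but diffSpliceDGE sets a partner against its whole end, the partner included. The scales differ, so the sizes cannot be compared.

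The list of chromatin genes held 7 of the 27 calls, on the ends of TLK1, EZH2 and CHD2, with 73 of the 904 partners tested. At the EZH2 acceptor the shortest circle, circRNA_38086 with exons 2 to 3, held 4 of 18, 15 of 35 and 4 of 27 reads at 1d and 5 of 10, 19 of 24 and 10 of 15 at 180d. The share rose from 26.6% ± 14.5 to 65.3% ± 14.6 (slope 0.35 ± 0.08, SE, adjusted p = 0.0121), and each pig at 180d lay above each pig at 1d. The longest circle, circRNA_38090 with exons 2 to 9, led at 1d with 14 of 18, 17 of 35 and 18 of 27 reads and held 5 of 10, 5 of 24 and 5 of 15 at 180d (slope -0.29 ± 0.07, adjusted p = 0.0199). The leader of this acceptor therefore differed between the youngest and the oldest pigs. In normalised reads circRNA_38090 fell from 27.7 ± 0.469 to 4.23 ± 0.964 (log2 fold change -2.71 ± 0.46, adjusted p = 2.66e-05), whereas circRNA_38086 had 12.9 ± 10.3 and 8.83 ± 4.32 (adjusted p = 0.629). The circle in between, circRNA_38087, held 14.5% ± 3.13 at 120d and was listed at 0 in all 3 pigs at 180d, out of 49 reads on the end.

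CHD2, a chromodomain helicase gene, had 2 calls at the acceptor of exon 3. circRNA_33937, exons 3 to 5, held 25 of 36, 17 of 29 and 22 of 43 reads at 1d and 60 of 72, 85 of 97 and 58 of 69 at 180d. That was 59.7% ± 9.19 against 85.0% ± 2.30 (slope 0.23 ± 0.05, adjusted p = 0.0121). circRNA_33916, exons 3 to 16, held 15.8% ± 7.71 and 2.86% ± 2.90 (slope -0.31 ± 0.08, adjusted p = 0.0298). KDM7A and MLLT10 stand outside that list. On a donor of KDM7A, a histone demethylase gene, circRNA_19534 with exons 15 to 16 held 9 of 12, 5 of 9 and 8 of 12 reads at 1d, and 42 of 46, 90 of 94 and 82 of 86 at 180d. The share was 65.7% ± 9.76 in newborn pigs, 91.7% ± 14.4 at 7d, and 94.1% ± 2.46 in the oldest (slope 0.33 ± 0.10, adjusted p = 0.0488). At the acceptor of MLLT10, a cofactor of the histone methyltransferase DOT1L, the longest circle circRNA_05608 fell from 9.04% ± 2.46 to 2.92% ± 2.11 (slope -0.26 ± 0.07, adjusted p = 0.0199).

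At the TLK1 acceptor 3 of the 7 partners had a slope. circRNA_16029 had -0.33 ± 0.06 (adjusted p = 0.000882), the smallest p of all 904. circRNA_16035, exons 2 to 11, had -0.20 ± 0.05 (adjusted p = 0.0141) and held 14 of 115, 12 of 125 and 8 of 148 reads at 1d against 29 of 447, 27 of 791 and 21 of 665 at 180d. circRNA_16050, whose donor is no annotated exon end, rose from 13.1% ± 1.59 to 22.2% ± 2.84 (slope 0.13 ± 0.03, adjusted p = 0.0172), with 13 of 115, 18 of 125 and 20 of 148 reads at 1d and 88 of 447, 200 of 791 and 144 of 665 at 180d. The pigs of the 2 ages did not overlap for circRNA_16050.

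OXR1, ULK2 and EPB41 gave the next ends. In OXR1, an oxidation resistance gene, circRNA_25880 with exons 4 to 6 held 9 of 17, 11 of 21 and 11 of 25 reads at 1d. It held 3 of 16, 5 of 12 and 3 of 10 at 7d, and 19 of 24, 38 of 45 and 32 of 37 in the oldest pigs. The share dipped to 30.1% ± 11.5 at 7d between 49.8% ± 5.01 at 1d and 83.4% ± 3.78 at 180d (slope 0.35 ± 0.08, adjusted p = 0.0121). In ULK2, a kinase that starts autophagy, circRNA_08807 with exons 4 to 5 held 2 of 26, 20 of 35 and 16 of 30 reads at 1d and 29 of 55, 84 of 107 and 90 of 135 at 180d. The spread between the 1d pigs was large (39.4% ± 27.5 at 1d, 66.0% ± 12.9 at 180d), and the slope of 0.30 ± 0.07 (adjusted p = 0.0121) drew on all stages. In EPB41, which encodes protein 4.1 of the red cell membrane skeleton, circRNA_30907 with exons 2 to 4 held 13 of 42, 12 of 41 and 9 of 51 reads at 1d and 25 of 43, 45 of 78 and 30 of 64 at 180d, with no overlap (26.0% ± 7.24 to 54.2% ± 6.38, slope 0.22 ± 0.05, adjusted p = 0.0121). Its 4 longer partners, which end at exons 5, 7, 11 and 16, did not pass the test singly.

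**Figure D2:**
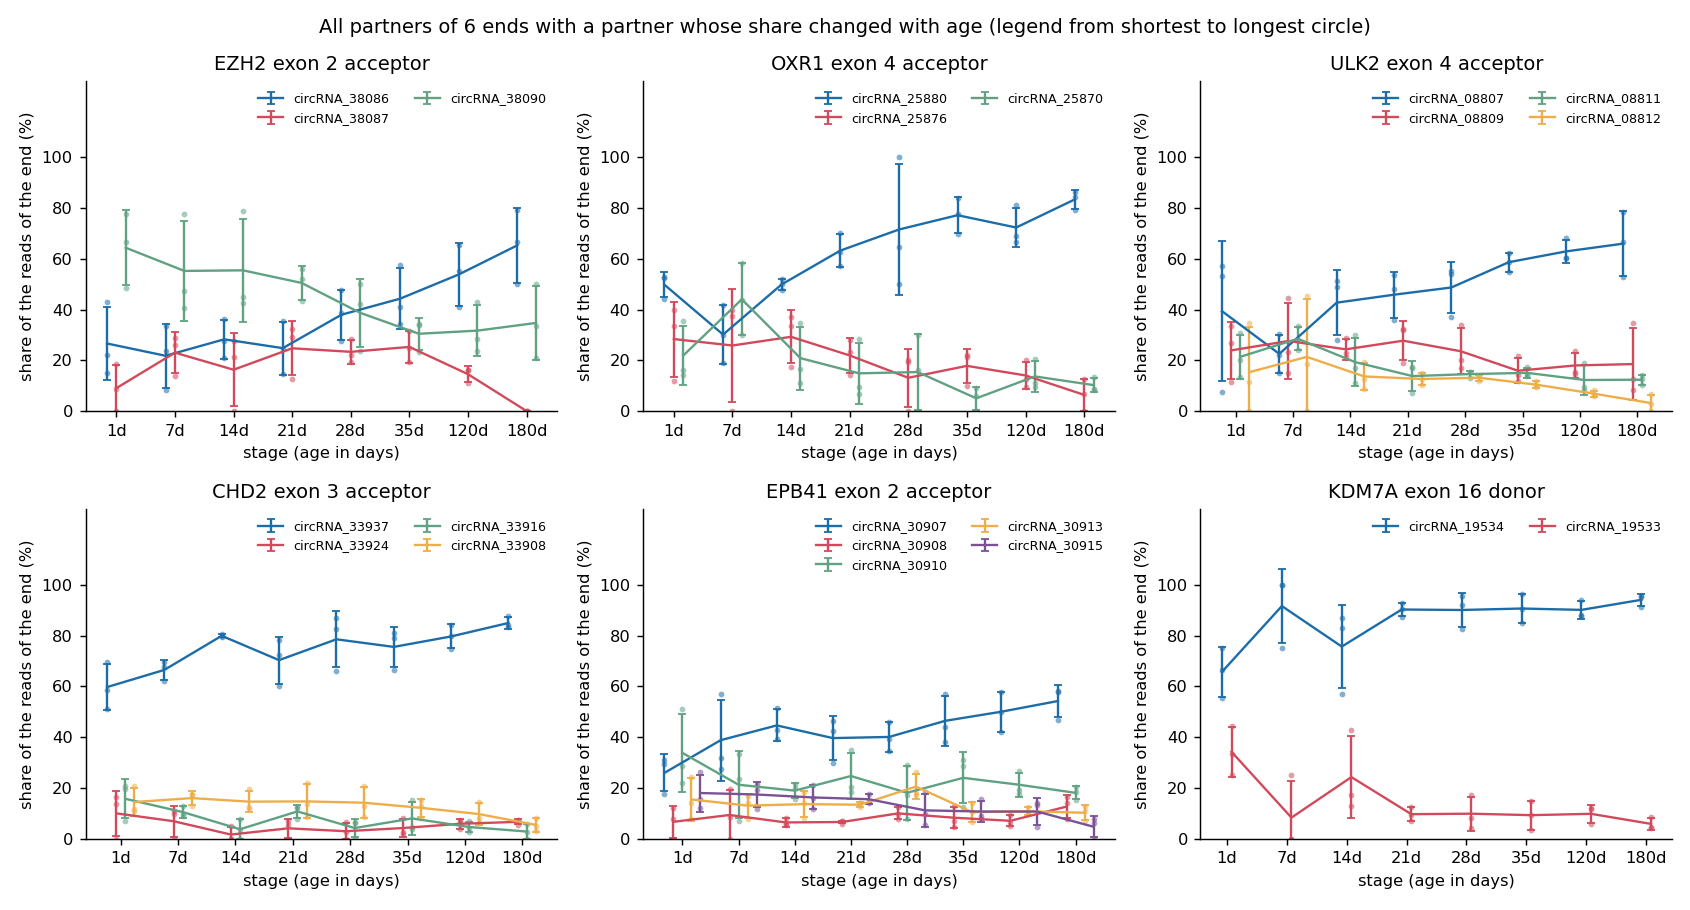
Share of the reads of the end (y axis, percent) against stage (x axis, age in days) for all partners of 6 ends with a slope; points are single pigs, lines join the means of 3 pigs with SD bars, and the legends run from the shortest to the longest circle. In EZH2 the shortest circle goes from 26.6% at 1d to 65.3% at 180d and the longest from 64.3% to 34.7%, so that their lines cross.

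Of the other partners with a slope, some had few reads. They are given for completeness and fall outside the naming rule. The steepest slope, 0.53 ± 0.16 (adjusted p = 0.0488), was that of circRNA_11431, exon 4 of the zinc finger gene ZNF148, with 0 of 7, 0 of 4 and 2 of 7 reads at 1d and 8 of 11, 11 of 11 and 16 of 20 at 180d. RPAP2, a phosphatase gene of RNA polymerase II, had a fall of circRNA_27454 from 63.5% ± 18.3 to 27.9% ± 7.53 (slope -0.29 ± 0.08, adjusted p = 0.0425). RPS6KC1, RHOT1 and SLC38A9 had rises of their shortest circle with slopes of 0.18 ± 0.05, 0.23 ± 0.06 and 0.23 ± 0.07. In SLC38A9, circRNA_17615 held 35.3%, 58.3% and 25.8% in the pigs at 1d and 52.1%, 90.4% and 50.4% at 180d, so the ages overlapped. The 90.4% is from the 180d pig 2, where its partner circRNA_17604 was listed at 0 of 104 reads. RHOT1 encodes a mitochondrial GTPase and SLC38A9 a lysosomal amino acid transporter. circRNA_08812 of ULK2 and circRNA_15143 of GTDC1 had slopes of -0.29 ± 0.09 and -0.24 ± 0.07, with an adjusted p of 0.0488 each.

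PRPSAP2 and PICALM, the acceptors with many donors and many reads, shifted along the series of donors by small steps. At exon 2 of PRPSAP2, 8 donors from exon 3 to exon 11 were used. circRNA_08861, which ends at exon 5, held 12 of 71, 11 of 89 and 12 of 115 reads at 1d and 86 of 326, 99 of 426 and 103 of 506 at 180d (13.2% ± 3.32 to 23.3% ± 3.01, slope 0.14 ± 0.04, adjusted p = 0.0369). circRNA_08857, which ends at exon 7, led at 1d with 31.7% ± 5.0 and held 20% ± 2.96 at 180d (slope -0.13 ± 0.03, adjusted p = 0.0199). At 180d the leader was circRNA_08862, which ends at exon 4, with 28.2% ± 0.252 against 22.0% ± 1.85 at 1d, though its own slope did not pass the test (0.08 ± 0.03, adjusted p = 0.162). At exon 2 of PICALM, circRNA_36806, which ends at exon 5, held 98 of 252, 110 of 301 and 155 of 382 reads at 1d and 202 of 413, 286 of 574 and 325 of 606 at 180d (38.7% ± 2.02 to 50.8% ± 2.50, slope 0.09 ± 0.02, adjusted p = 0.0427). circRNA_36800, which ends at exon 7, fell from 12.5% ± 2.93 to 6.11% ± 1.34 (slope -0.12 ± 0.03, adjusted p = 0.0335). circRNA_36806 also shares its donor with circRNA_36811, and on that donor it held 97.5% ± 0.902 at 1d and 97.8% ± 0.690 at 180d, so the donor was almost always joined to this acceptor.

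**Figure D3:**
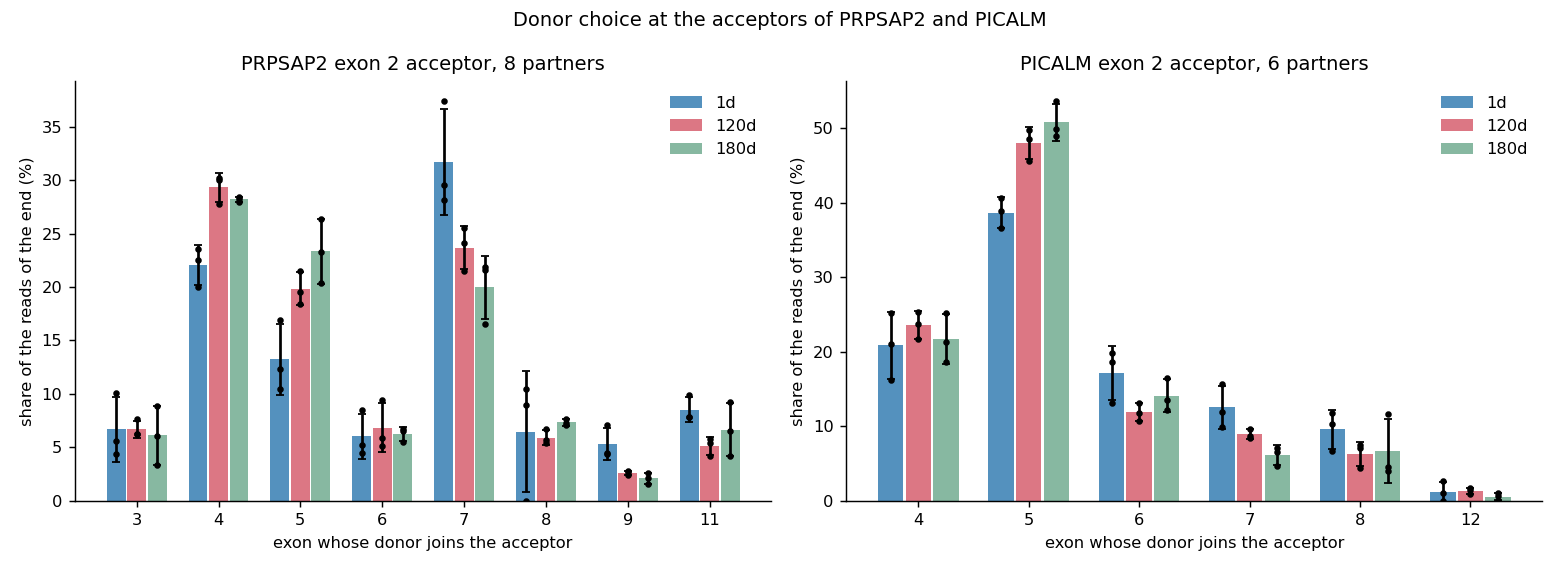
Share of the reads of the end (y axis, percent) for each donor exon (x axis) at the exon 2 acceptors of PRPSAP2 and PICALM, in 1d, 120d and 180d pigs; bars are means of 3 pigs, error bars are SD and points are single pigs. Donor exons 4 and 5 of PRPSAP2 hold more at 180d (28.2% and 23.3%) than at 1d (22.0% and 13.2%), and exon 7 holds less.

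The order of lengths was common to the called partners. Of the 15 rises, 14 were in the shorter part of the partners of their end, 1 was in the middle and 0 in the longer part, whereas all 12 falls were in the longer part. Direction was then counted over all partners tested, called or not. On ends with 2 partners the shorter circle had a positive slope in 347 of 522 (66.5%), with a median slope of 0.04, and this held at acceptors (180 of 277, 65.0%) and at donors (167 of 245, 68.2%). On ends with 3 or more partners the shortest circle had a positive slope in 85 of 114 (74.6%), the ones in between in 70 of 154 (45.5%) and the longest in 31 of 114 (27.2%).

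**Figure D4:**
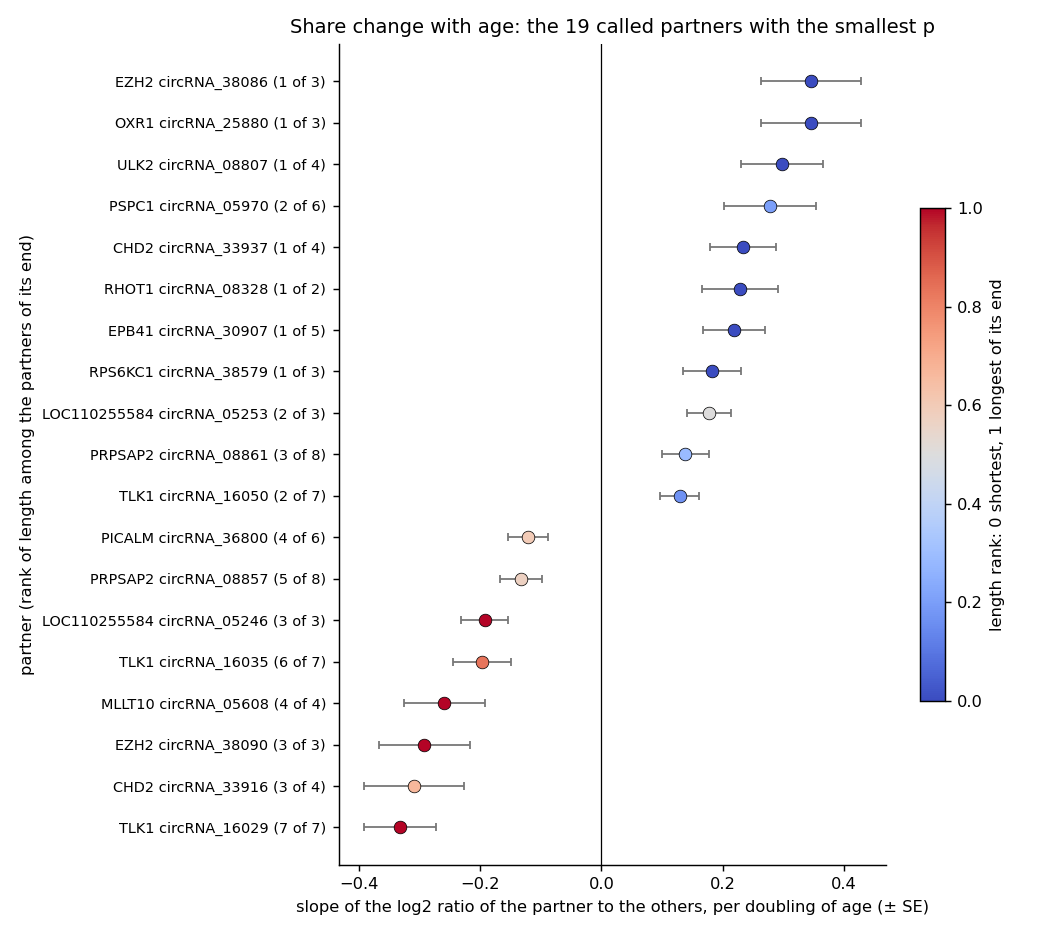
Slope of the log2 ratio of a partner to the other partners of its end per 2-fold increase in age (x axis, ± SE) for the 19 partners called with the smallest p (y axis, with the rank of its length). The positive slopes reach 0.35, the negative ones reach -0.33, and no circle in the longer part of its end is among the rises.

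The mean share of the shorter circle over the 522 ends with 2 partners went up by a few points. It was 51.6%, 50.4% and 51.2% in the pigs at 1d and 54.7%, 55.6% and 55.4% in the pigs at 180d. The 1d, 7d and 14d means were 51.1% ± 0.590 (SD, n = 3), 50.9% ± 1.42 and 51.0% ± 0.864. The 21d, 28d and 35d means were 51.9% ± 0.914, 53.4% ± 0.553 and 52.9% ± 0.349, and those of 120d and 180d were 53.2% ± 1.09 and 55.3% ± 0.462. The pigs at 180d lay above all others, and the stages from 28d to 120d did not differ beyond their spread. The difference between 180d and 1d was 4.19 points. It was 3.29 points on ends with at least 30 reads per library, 1.91 points on ends with at least 100 reads, 6.78 points after thinning to the lowest library total, and 3.66 points in the libraries with a valid-base share of at least 0.96. These alternatives were chosen after seeing the data. Library totals were also higher at the older ages (above), and their part in the difference was tested by the thinning only.

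**Figure D5:**
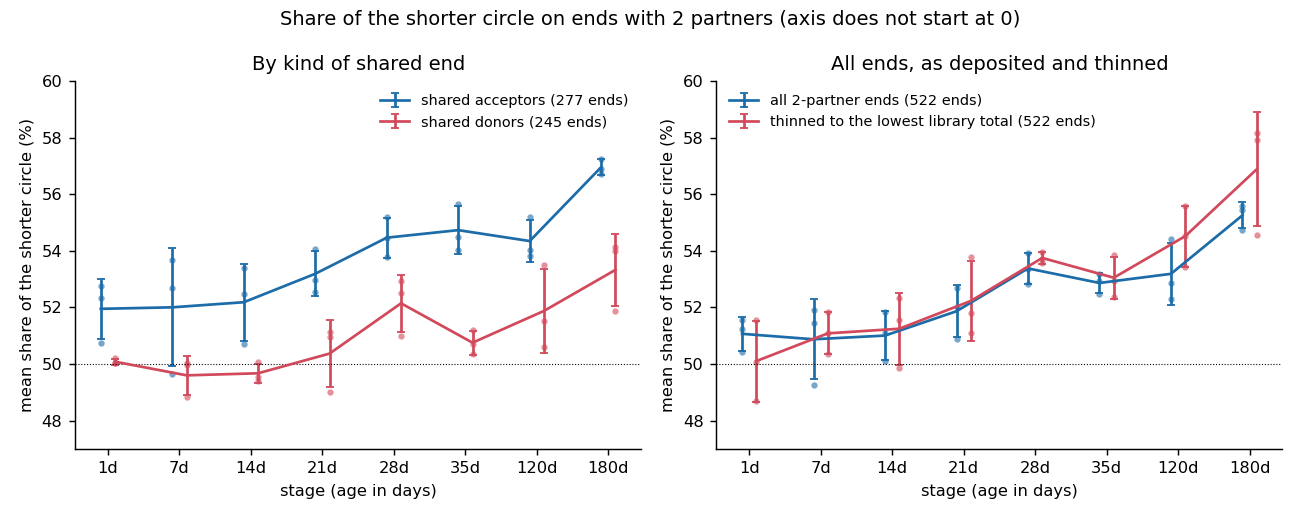
Mean share of the shorter circle on ends with 2 partners (y axis, percent, not starting at 0) against stage (x axis, age in days), for acceptors and donors apart (left) and for all 522 ends as deposited and thinned to the lowest library total (right); points are single pigs and lines join the means of 3 pigs with SD bars. As deposited, the means of all ends run from 51.1% at 1d to 55.3% at 180d, and the 3 pigs at 180d are the highest.

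A lean towards short circles was also seen among circles that shared no end. With the median exonic length of all circRNAs, 431 nt, as the divide, the median slope of abundance with age (log2 per 2-fold age) was 0.09 for the 517 shorter and -0.01 for the 773 longer members. It was 0.08 for the 909 shorter and -0.02 for the 645 longer circRNAs that shared no end. Pairs of circles of one host gene were ordered by genomic span instead, which need not follow exonic length. The circle of shorter span had the higher slope in 631 of 912 pairs (69.2%) that shared an end. It had the higher slope in 722 of 1212 pairs (59.6%) that did not. The pairs of one gene are not independent, and these shares carry no test.

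Single contrasts with newborn pigs called few partners. Between 180d and 1d, 1 of 904 partners was called (0.111%), and 125 had an unadjusted p under 0.05. DESeq2 called 0, and so did edgeR after thinning. The partner was circRNA_05970 of PSPC1, a paraspeckle protein gene (chromosome 11, acceptor at 562934, exons 2 to 3). It was listed at 0 of 57, 0 of 85 and 0 of 67 reads of its end at 1d, and held 6 of 85, 14 of 202 and 14 of 215 at 180d (adjusted p = 0.0376). The pooled share was 6.77% at 180d and 5.49% at 120d. A count of 1 is listed at 0, and 1 missing read in each 1d pig would be 1.44% of the 209 reads there. Whether a listed 0 can hide more reads is not known (above), so 1.44% is no upper limit and no fold is given. The call was lost without any one of the 1d or 180d pigs or without the 120d pig 3 (0 calls each), and 2 partners were called without the 21d pig 1. The slope of circRNA_05970 with age was 0.28 ± 0.08 (adjusted p = 0.0335). Between 120d and 1d, 0 of 904 partners were called (0.0%) by edgeR and 0 by DESeq2, with 73 at an unadjusted p under 0.05 and a smallest adjusted p of 0.0942. Without the 7d pig 2, 1 was called, 3 were called on ends of at least 30 reads and 2 after thinning.

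The leading partner in the pooled reads was also compared between newborn and older pigs. On 390 ends with a mean of at least 20 reads per library, the leader at 1d differed from that at 180d or 120d in 72. Of these 72, 7 were ends with a called slope. The 72 ends were chosen by a change between ages in the same reads that gave the slopes. Their rate of calls therefore cannot be compared with that of all ends tested, which also include ends with fewer reads. In DEK, a chromatin protein gene, circRNA_32602 held 5 of 25, 27 of 48 and 20 of 49 reads at 1d (39.0% ± 18.2) and 55.1% ± 12.5 at 180d (adjusted p with age 0.511). In DCUN1D1, which promotes cullin neddylation, circRNA_11007 held 31 of 54, 29 of 71 and 32 of 68 reads at 1d, or 48.4% ± 8.37, against 57.5% ± 3.13 at 180d. In UXS1, a nucleotide sugar enzyme gene, circRNA_23886 held 34.6% ± 5.49 at 1d and 51.2% ± 8.65 at 180d (slope 0.14 ± 0.05, adjusted p = 0.113). In TESK2, a kinase gene, circRNA_32293 and circRNA_32295 held 42.7% ± 8.31 and 42.2% ± 5.46 at 1d, and 40.4% ± 1.98 and 48.1% ± 1.64 at 180d. In MATR3, which encodes a nuclear matrix protein, circRNA_22577 and circRNA_22578 held 42.1% ± 6.86 and 41.9% ± 5.04 at 1d, and 43.4% ± 5.26 and 45.4% ± 2.59 at 180d. None of these 5 ends passed a test of the switch.

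Circles that share an end were then set against circles of the same host gene that do not. Over the 8 stages the log2 ratio of the pair differed for 3 of 912 pairs that shared an end (0.329%) and for 1 of 1212 pairs that did not (0.0825%), adjusted over all pairs together. The 3 were circRNA_05253 with circRNA_05246 of LOC110255584 (adjusted p = 0.00639) and circRNA_16029 of TLK1 with circRNA_16048 (adjusted p = 0.00304) and with circRNA_16051 (adjusted p = 0.00834). The other was a pair of ZNF644 circles. At an unadjusted p under 0.05 the shares were 5.92% and 7.10%, so the counts of calls are too small to rank the kinds of pair.

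In abundance, the members moved much as the whole table did. Between 180d and 1d, with a log2 fold change past 1 in either direction, 79 of 1357 members were higher (5.82%, against 5.9% of all circRNAs) and 57 lower (4.20%, against 3.4%). Between 120d and 1d, 64 were higher (4.72%, against 4.63%) and 18 lower (1.33%, against 1.47%). With age, 147 had a rising slope (10.8%, against 10.7%) and 85 a falling one (6.26%, against 5.77%). These sums of 136, 82 and 232 members fell to 87 and 43 for 180d and 120d without the 1d pig 1, to 41 for 120d without the 1d pig 2, and to 85 for 180d without the 180d pig 2. With clean reads of the whole library as the depth, the median of all circRNAs moved from 0.20 to 1.27 in the 180d comparison and from 0.26 to 1.99 in the 120d one, so all directions given here are relative to the circRNAs of the table. Of the 1072 pairs of partners, 29 were called in the same direction between 180d and 1d, 189 had 1 partner called, and 0 had partners called in opposite directions. The log counts of partners over the 24 libraries had a median correlation of 0.366 in 174 deep pairs, against 0.298 in 123 deep pairs of one gene that shared no end, as a description, since all circles in a library share its depth.

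The gene lists were described by counts. The list of chromatin genes had 23 hosts on shared ends with 92 members, and 1 of its 73 partners tested changed over the stages and 7 with age, against 4 and 27 of all 904. The list of widely conserved circRNA hosts had 9 hosts, 30 members and 26 partners tested, of which 2 changed with age, both in PICALM. The list of RNA splicing and circRNA formation had 8 hosts and 22 members, and 0 of 15 partners passed either test. The cell cycle list had 7 hosts and 19 members, with 0 of 12 partners called. Of its members 3 were lower at 180d (against 3.4% of all circRNAs) and 0 higher. Their median log2 fold change was -1.48, against 0.20 for all circRNAs. The chromatin list had 6 members lower and 4 higher at 180d. The splicing list had 3 lower and 1 higher, and the list of conserved hosts 1 lower and 0 higher. Of the cell cycle members that were lower, 1 is given here. It was circRNA_15205 of MCM6, a subunit of the replicative helicase, at 23.2 ± 11.6 normalised reads at 1d and 2.93 ± 1.36 at 180d (adjusted p = 0.000339). Its share of its end was 64.8% ± 14.7 and 91.7% ± 14.4. The last share rests on 2 of 2, 3 of 3 and 6 of 8 reads.

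Of the 5 cell type lists, 2 had members, and their one called switch was that of EPB41. The erythroid list had 2 hosts, EPB41 and the transferrin receptor gene TFRC, with 7 members, of which 3 were lower at 180d (against 3.4% of all circRNAs) and 0 higher, with a median log2 fold change of -1.53 against 0.20 for all circRNAs. The B and plasma cell list had 4 hosts and 8 members, 2 of them higher at 180d (against 5.9% of all circRNAs, median 1.05) and 0 of 7 partners called. CR1, also on this list, is not among these 4 hosts, though its circRNA_37493 and circRNA_37492 share a donor. circRNA_36504 of FCHSD2 went from 34.5 ± 11.8 to 126 ± 44.8 normalised reads (log2 fold change 1.85 ± 0.46, adjusted p = 0.0139), while its share of the donor was 86.2% ± 4.11 and 89.4% ± 3.83. The T and NK, myeloid and stromal lists had 3, 1 and 1 hosts in the table and 0 members. The part of changing cell numbers in the shares above was not tested.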

How the data were processed

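Per the labels and the study's methods, RNA of 24 Meishan pig spleens was depleted of ribosomal RNA and sequenced on Illumina HiSeq instruments. The sources name different extraction and library kits, and the study's methods alone state an RNase R digestion. The authors used BWA for alignment to Sscrofa11.1 and CIRI2 to find back-splice junctions, and the submitters' processing notes list FastQC, cutadapt and TopHat2. The deposited table holds raw counts of back-splice reads for 3000 circRNAs in 24 columns, with 0 columns left without a sample. How these circRNAs were chosen is not given in the sources used here. Total counts per library, 16273 to 87867, limit the precision, and p-values cover the spread between libraries.

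From the counts, ends were matched by exact position and strand and annotated with RefSeq exons of Sscrofa11.1, and 64 members matched no exon pair. Partner ratios were fitted with edgeR 4.0.16 (R 4.3.3, robust quasi-likelihood), with 1 coefficient per library, all 24 libraries in one fit and ends with a mean of at least 10 reads. Abundance was fitted on all 3000 circRNAs with TMM scaling. P-values were adjusted by the Benjamini-Hochberg method over all features of a fit, with a threshold of 0.05. Alternatives were DESeq2 1.42.0, diffSpliceDGE, other read minimums or none, thinning to the lowest total, 0 replaced by 1, clean reads as depth, the replicate number as a block, removal of libraries whose valid-base share was under 0.96 (the clean-read and valid-base values come from the study's library table), and each library left out. Scripts were tested on simulated data. Python 3.11.15 was used for descriptions.

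Members, gene lists and tests were chosen with earlier results of these data known. The rule for names took the ends of the 8-stage test (at least 10 by smallest p), the 5 partners with the smallest p of slope in each direction, 8 ends with a changed leader, the 5 ends with the most partners and with the most reads, the 3 hosts with the most members, up to 5 ends with partners within 12 bases, and members of the lists. Results on some named genes are not reported here.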

Additional observations from a re-analysis of the deposited data

How the results depend on the processing

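The calls of switches rest on few reads, and their number moved with most settings. Against 4 calls over the stages there were 12 with each 0 replaced by 1 and 0 in the libraries with a valid-base share of at least 0.96. Against 27 calls with age there were 16 by DESeq2, 2 by diffSpliceDGE, 3 after thinning all libraries to the lowest total, 54 with each 0 replaced by 1 and 0 with the valid-base minimum, and 3 to 27 with 1 library left out. Against 1 call for 180d with 1d there were 0 by DESeq2, 0 after thinning, 10 with each 0 replaced by 1, 0 with the valid-base minimum and 0 to 2 with 1 library left out. Against 0 calls for 120d with 1d there were 3 on ends of at least 30 reads, 2 after thinning and 0 to 1 with 1 library left out. Against 3 sharing pairs of one host gene there were 6 by DESeq2, 0 after thinning, 14 with each 0 replaced by 1 and 0 with the valid-base minimum. No value changed direction under an alternative, and the 14 values of named partners that were followed kept their sign with the valid-base minimum, where none of them passed the threshold. The cause of these changes was not tested, beyond fewer reads after thinning and fewer libraries with the minimum.

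For abundance, 136, 82 and 232 members (180d, 120d, age) became 71, 32 and 105 after thinning, 32, 28 and 56 with the valid-base minimum, and 468, 916 and 890 with clean reads as the depth, and 180d and 120d had 85 to 141 and 41 to 88 with 1 library left out. The rise of 4.19 points in the share of the shorter circle was 3.29 on ends of at least 30 reads, 1.91 at 100 reads, 6.78 after thinning and 6.44 with reads summed over the ends.

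For 84 pairs of libraries with equal replicate number, deviations of the log2 partner ratios from the stage mean were correlated. The correlation ran from -0.103 to 0.116, with a median of 0.00329. Many of these ratios rest on few reads, so this cannot show whether pigs of equal number share a litter or a batch. With the replicate number as a block the calls were 3 over the stages and 26 with age.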
